A study of Drosophila melanogaster with 12 samples.

Results

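Young Ptth mutant females were compared with young wild-type females across all genes. The comparison used 6 of the 12 libraries of the series, the 3 labelled as young females of the genotype ptth120BC2 and the 3 labelled as young females of the genotype wOB. Each library held poly(A) RNA from the whole bodies of about 15 flies, which the submitters' design text gave as 1 week old. The other 6 libraries, females of the same genotypes given as 5 weeks old and called old here, entered the model to estimate the spread and gave the old values below. As far as the labels say, each genotype was 1 stock, so the Ptth allele and any other difference between the stocks cannot be told apart.

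Prothoracicotropic hormone, the product of Ptth, is a brain neuropeptide that acts through the receptor tyrosine kinase Torso on the larval prothoracic gland, where a MAPK relay raises the synthesis of ecdysone. The pulse of ecdysone sets the time of pupariation and, through its nuclear receptor, the remodelling of tissues in metamorphosis. In the adult female, ecdysteroids come mainly from the ovary, and a whole body also holds gut, fat body, muscle, head tissues, blood cells and any sperm or egg that the female carries.

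Transcripts of the male reproductive tract divided the young libraries. The 45 listed genes of seminal fluid and sperm summed to 12117 normalised counts in wild type 1, 41278 in wild type 2 and 15380 in mutant 1, and to at most 129 in each of the other 9 libraries. A normalised count is a gene's read count divided by a size factor of its library. Wild type 3, mutant 2 and mutant 3 stood at the level of the old libraries. Most results below are therefore followed by their value in the fit of wild type 3 against mutants 2 and 3. These libraries are called here the set free of male signal, a name that stands for this low level and not for 0. That fit holds a single young wild-type library and takes its spread from the remaining groups. The old libraries served in both fits. The depth of the young libraries lay between 18324396 and 28206866 reads, and the female marker genes Yp1, Yp2 and Yp3 were abundant in every library.

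A gene was called when its adjusted p was under 0.05 and its fold change over 1.5. Of 11403 genes tested, 549 were called (4.81%), of which 118 were higher in mutants (1.03%) and 431 lower (3.78%). With quantile normalisation the split was 171 higher and 290 lower. In the set free of male signal 115 genes were called (1.01%), 41 of them higher (0.36%) and 74 lower (0.649%). Of the 74, 9 had at most 3 reads in each of these 3 libraries, 7 of them 1 read in wild type 3 and none in mutants, and 19 others had passed the filter on low counts only through young wild type, so that they had to be lower in mutants. The 41 held 1 gene with at most 3 reads in each. Such calls are no evidence of a change. Called in both fits with the same sign were 93 genes (0.816%), of which 31 rose and 62 fell in mutants, 17 of the 62 with that filter and none of the 93 with so few reads. The other 456 genes kept the sign of their change, though both fits share libraries, and 308 of them were past the fold but not the test. Within the 3 libraries with male transcripts, which share no young library with the other 3, 316 genes were called (2.77%), 82 of them higher (0.719%) and 234 lower (2.05%). Of the 316, 82 were called in the same direction in the other 3, which is 25.9% of the one set and 71.3% of the other. The 82 shared calls include genes that passed the filter only through young wild type, CG10035 and bnk among them, so that part of this overlap was fixed. The number of calls moved with single libraries, and was 297 without wild type 1, 345 without wild type 2, 2265 without wild type 3, 341 without mutant 2 and 300 without mutant 3.

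**Figure D1:**
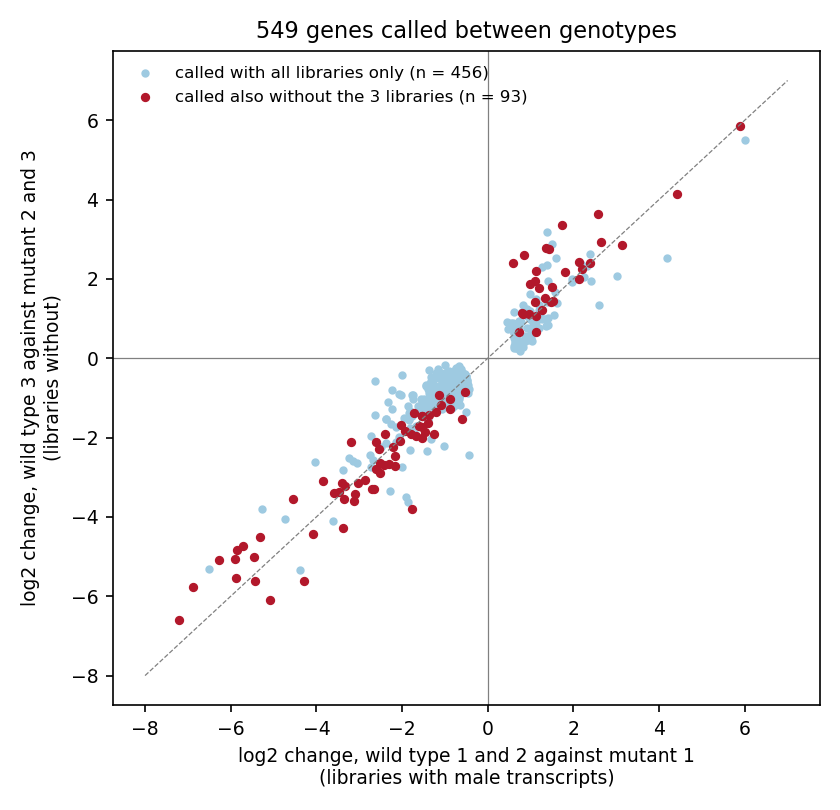
Log2 change of the 549 called genes in wild type 1 and 2 against mutant 1 (x axis) and in wild type 3 against mutants 2 and 3 (y axis), 1 point per gene, with the line of equal change dashed. The 93 genes called also without the 3 libraries with male transcripts are red. For every gene the change on the y axis has the sign of its change with all libraries.

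Ptth lay on chromosome 2L at 575711 to 576896 of Release 6, on the minus strand. Its normalised counts were 35.4, 39.9 and 25.5 in wild type and 28.3, 18.5 and 22.4 in mutants. The values of the groups overlapped and the gene was not called (log2 change -0.52 ± 0.22, adjusted p = 0.133, and -0.32, adjusted p = 0.694 in the set free of male signal). The labels do not give the lesion, so the transcript level checks no label. Counts of tor, which encodes Torso, were 1553, 1264 and 1987 in wild type and 2242, 2408 and 2251 in mutants. The lowest mutant library was above the highest wild type, yet the change was under the fold threshold (log2 change 0.55 ± 0.13, adjusted p = 0.0308), and it was 0.23 with an adjusted p of 0.608 in the set free of male signal. With all libraries no gene was called among 12 of the hormone's relay, 20 measured ecdysone response genes and 10 measured genes of ecdysteroid synthesis and breakdown. The medians of these lists were 0.09, -0.17 and -0.18, and -0.003, -0.05 and -0.14 in the set free of male signal. Under TMM scaling and with edgeR 1 ecdysone response gene was called lower, and with DESeq2 1 gene of ecdysteroid synthesis and breakdown was.

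The highest-level genes called in both fits were lower in mutants in 11 of 19 cases, counting genes with a mean of at least 1000 in the higher group, a limit set after the values were seen. Mur29B, a mucin-related gene on 2L, had counts of 7029, 7931 and 6146 in wild type and 706, 727 and 654 in mutants (log2 change -3.33 ± 0.12, adjusted p = 4.64e-08, and -3.15, adjusted p = 0.00299 in the set free of male signal). Wild type was thus 10.1 times the mutant mean, and the groups did not come near each other. Groups of 3 that did not overlap were common, at 2889 of the 11403 genes (25.3%), and a separation given below is to be read against that share. CG42825, named Srg2 in the current annotation, had 8811, 9176 and 6691 in wild type and 1047, 665 and 578 in mutants (log2 change -3.46 ± 0.21, adjusted p = 4.48e-06, and -3.43, adjusted p = 0.00362 in the set free of male signal). Mutant 1 was the highest mutant library, and it was still below every wild-type library.

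A lysozyme and a C-type lectin were among these falls. LysX, a lysozyme, had counts of 1341, 1912 and 1229 in wild type and 184, 102 and 99.6 in mutants (log2 change -3.56 ± 0.27, adjusted p = 2.18e-05, and -3.59, adjusted p = 0.0121 in the set free of male signal). lectin-37Da, a C-type lectin, had 3494, 4075 and 2929 in wild type and 513, 317 and 385 in mutants (log2 change -3.12 ± 0.17, adjusted p = 2.32e-06, and -3.06, adjusted p = 0.00299 in the set free of male signal). In both genes every mutant library was below every wild-type library, with and without male transcripts. Zip99C, of the ZIP family of metal transporters, fell by less, with 5067, 5247 and 3809 in wild type and 2342, 2031 and 1995 in mutants (log2 change -1.14 ± 0.12, adjusted p = 1.69e-04, and -0.92, adjusted p = 0.0281 in the set free of male signal). The uncharacterised genes CG10912, CG42807, CG5767, CG32368, CG13947 and CG16986 completed the 11, with log2 changes of -2.40, -2.29, -2.03, -2.84, -3.09 and -1.17. In the set free of male signal these changes were -2.25, -1.91, -1.90, -2.80, -3.30 and -1.17. All 11 were also called lower in old mutants. Zip99C, lectin-37Da, CG42825 and CG16986 overlap another gene on the opposite strand, and the sources do not state if reads were counted by strand.

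Among less abundant genes, 2 Sox factors fell in both fits. Sox21a, an HMG-box factor of intestinal progenitor cells, had 159, 209.8 and 165 in wild type and 28.3, 17.6 and 14.2 in mutants (log2 change -3.13 ± 0.22, adjusted p = 1.17e-05, and -3.30, adjusted p = 0.00362 in the set free of male signal). Sox100B, another HMG-box factor, had 111, 119.6 and 97.3 in wild type and 22.5, 14.95 and 14.2 in mutants (log2 change -2.62 ± 0.21, adjusted p = 2.95e-05, and -2.66, adjusted p = 0.0118 in the set free of male signal). In both, the 3 mutant libraries were below the 3 of wild type. In RNA of whole bodies, fewer cells that express a gene and less of its RNA per cell cannot be told apart. Both genes were named after their values were seen.

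Of the 19 highest-level genes called in both fits, 8 were higher in mutants. CG13397 (Naglu), a lysosomal glucosaminidase that degrades heparan sulfate, had counts of 1117, 932 and 1237 in wild type and 2944, 3365 and 3312 in mutants (log2 change 1.56 ± 0.11, adjusted p = 1.19e-05, and 1.43, adjusted p = 0.0113 in the set free of male signal). LManV, of the lysosomal alpha-mannosidase family, had 500.3, 989 and 405 in wild type and 2002, 1542 and 1278 in mutants (log2 change 1.43 ± 0.29, adjusted p = 0.0117, and 1.79, adjusted p = 0.0474 in the set free of male signal). In both genes the lowest mutant library was above the highest wild-type library.

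Tep4, a thioester-containing protein of the complement-like family, had 465, 550.3 and 363 in wild type and 2648, 1838 and 1979.6 in mutants (log2 change 2.23 ± 0.22, adjusted p = 1.06e-04, and 2.39, adjusted p = 0.0297 in the set free of male signal). Fst, known as Frost for its response to cold, had 915, 845 and 608 in wild type and 2029, 1880.3 and 2274 in mutants (log2 change 1.40 ± 0.18, adjusted p = 5.93e-04, and 1.76, adjusted p = 0.0461 in the set free of male signal). GM130, a matrix protein of the Golgi, had 650.4, 563 and 724 in wild type and 1319, 1159 and 1119 in mutants (log2 change 0.90 ± 0.10, adjusted p = 1.82e-04, and 0.65, adjusted p = 0.0252 in the set free of male signal). Each of the 3 genes had its lowest mutant library above its highest wild-type library. Of the 8 risers, LManV and CG4267 were not called at the old age, where their log2 changes were 0.40 and 0.29.

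**Figure D2:**
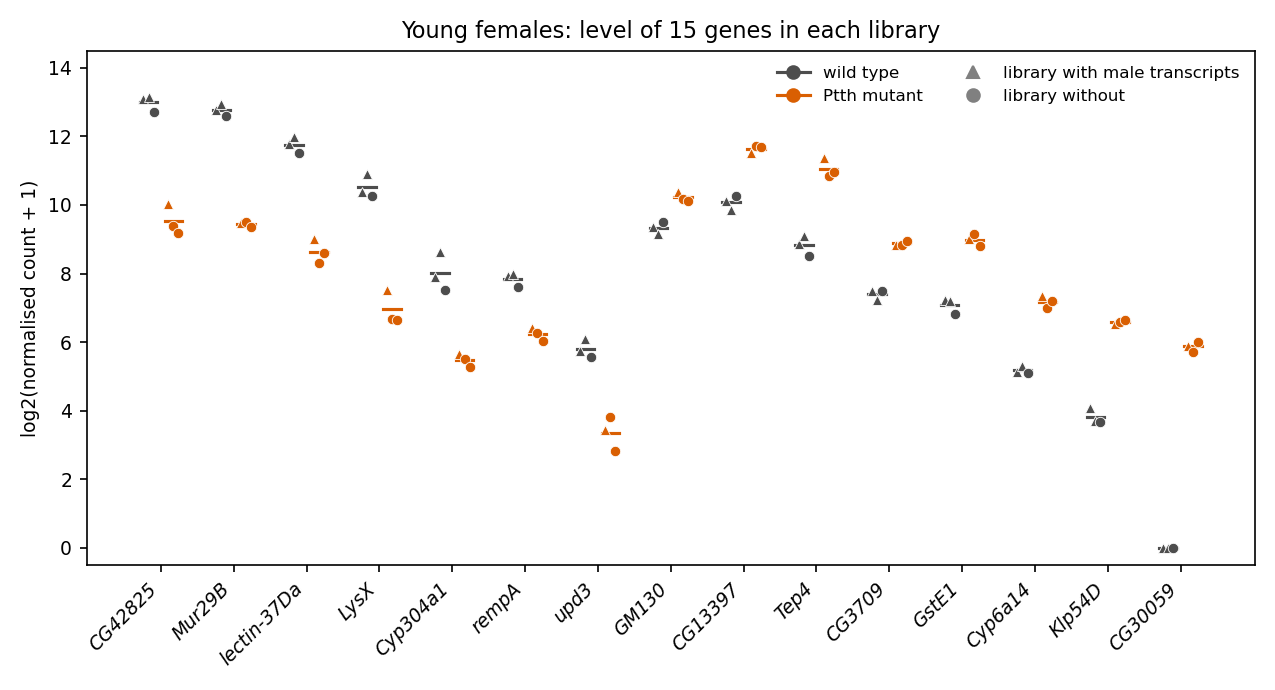
Normalised counts of 15 genes in the 6 young libraries, as log2(count + 1), with wild type in grey, Ptth mutants in orange, group means of the log2 values as bars and the 3 libraries with male transcripts as triangles. In each of the 15 genes the 2 genotypes do not overlap, as in 25.3% of all tested genes, and CG30059 is at 0 in all 3 wild-type libraries.

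The largest rise was that of CG30059, an uncharacterised gene on chromosome 2R. It had no read in any young wild-type library and counts of 58.6, 51.9 and 63.01 in mutants. Set against 3 reads over the young wild-type group, mutants were at least 59.6-fold higher (log2 change 5.87, and 5.86 in the set free of male signal). Old wild type held 0, 0.954 and 3.97, so the gene passed the filter on low counts only through mutants. Its values are therefore a description, given without a test. The pseudogene CR44906, named below, passed the filter in the same way. CG34195, also on 2R, had 26.8, 27.9 and 35.4 in wild type and 246, 286 and 244 in mutants (log2 change 3.07 ± 0.25, adjusted p = 3.10e-05, and 2.87, adjusted p = 0.0482 in the set free of male signal). Klp54D, a kinesin-like motor gene, had 15.9, 11.96 and 11.8 in wild type and 90.9, 94.98 and 99.6 in mutants (log2 change 2.77 ± 0.22, adjusted p = 2.49e-05, and 2.94, adjusted p = 0.0121 in the set free of male signal). CG34195 and Klp54D were called higher in old mutants too, with log2 changes of 3.29 and 2.92, and the old change of CG30059 was 5.59.

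CG13793 had 46.4, 39.1 and 34.4 in wild type and 189.6, 175 and 202 in mutants (log2 change 2.22 ± 0.15, adjusted p = 7.33e-06, and 2.42, adjusted p = 0.00723 in the set free of male signal). The homeobox gene vis had 10.98, 26.3 and 3.93 in wild type and 59.6, 39.6 and 60.97 in mutants, with its lowest wild-type value in the library free of male transcripts (log2 change 2.19 ± 0.49, adjusted p = 0.0203, and 3.35, adjusted p = 0.0104 in the set free of male signal). CG9825 had 73.2, 65.4 and 21.6 in wild type and 187, 167 and 138 in mutants (log2 change 1.77 ± 0.40, adjusted p = 0.0206, and 2.76, adjusted p = 0.0355 in the set free of male signal). In each, every mutant library was above every wild-type library. The further rises named after their values were seen included dgo, the planar polarity gene Diego (log2 change 1.29 ± 0.09, adjusted p = 7.33e-06, and 1.203, adjusted p = 0.00822 in the set free of male signal), the ABC transporter gene Mdr50 (log2 change 1.27 ± 0.20, adjusted p = 0.00237, and 1.53, adjusted p = 0.0445 in the set free of male signal) and the pseudogene CR44906, at 0 in all wild-type libraries and at 20.5, 16.7 and 16.3 in mutants.

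Enzymes of detoxification changed in both directions. Of 62 measured cytochrome P450 genes, 7 were higher and 12 lower in mutants, which is to be read against 1.03% and 3.78% of all genes, and their median log2 change was -0.23 against -0.02 over all tested genes. Without the 3 libraries 4 were higher (0.36% of all genes) and 1 was lower (0.649%), and the median was 0.08. With edgeR 4 were higher and 13 lower. Cyp6a14 had 34.2, 38.3 and 33.4 in wild type and 161, 127 and 146 in mutants (log2 change 2.001 ± 0.16, adjusted p = 3.08e-05, and 1.995, adjusted p = 0.0200 in the set free of male signal). Cyp6d2 had 26.8, 18.3 and 16.7 in wild type and 107, 86.2 and 81.3 in mutants (log2 change 2.11 ± 0.25, adjusted p = 3.71e-04, and 2.26, adjusted p = 0.0479 in the set free of male signal). In both, the lowest mutant library was above the highest of wild type.

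Cyp12d1-p had 6.10, 10.4 and 3.93 in wild type and 52.8, 53.6 and 67.1 in mutants (log2 change 2.99 ± 0.33, adjusted p = 2.30e-04, and 3.63, adjusted p = 0.00822 in the set free of male signal). Its near-identical copy Cyp12d1-d was at 0 in all 6 libraries, so which copy the reads came from is uncertain. Cyp309a2 had 17.1, 38.3 and 9.82 in wild type and 67.4, 58.05 and 91.5 in mutants (log2 change 1.87 ± 0.38, adjusted p = 0.0122, and 2.77, adjusted p = 0.0131 in the set free of male signal). The P450 gene lower in both fits was Cyp304a1, with 236, 392 and 181 in wild type and 48.9, 44.9 and 37.6 in mutants (log2 change -2.53 ± 0.26, adjusted p = 1.40e-04, and -2.11, adjusted p = 0.0402 in the set free of male signal), where wild type 2 was the highest library and the genotypes did not overlap. The other 11 P450 genes called lower missed the threshold without the 3 libraries.

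Of 32 measured glutathione S-transferase genes, which encode conjugating enzymes, 4 were higher and 1 lower (1.03% and 3.78% of all genes), with a median of 0.03 that turned to -0.02 under TMM scaling (0.15 without the 3 libraries). GstD1, the most abundant of those called, had 6071, 6401 and 6209.8 in wild type and 14176, 15094 and 16244 in mutants (log2 change 1.28 ± 0.17, adjusted p = 8.97e-04). The genotypes were well apart, but the change missed the test in the set free of male signal (1.33, adjusted p = 0.180). GstE1 was called in both fits, with 149, 147 and 111 in wild type and 519, 566 and 443 in mutants (log2 change 1.91 ± 0.20, adjusted p = 1.55e-04, and 2.16, adjusted p = 0.0492 in the set free of male signal). GstD3 (log2 change 1.42 ± 0.17) and GstE5 (1.13 ± 0.20) were higher and GstD10 lower (-1.94 ± 0.20) with all libraries only.

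Of 40 measured digestive enzyme genes, 7 were higher and 4 lower (1.03% and 3.78% of all genes), with a median of 0.24. Without the 3 libraries 3 were higher and 1 lower (0.36% and 0.649% of all genes), with a median of 0.40. With edgeR and all libraries 3 were higher and 4 lower. The serine protease gene Jon25Bii had 3665, 4639.6 and 1408 in wild type and 9038, 6528 and 6343 in mutants (log2 change 1.32 ± 0.35, adjusted p = 0.0386, and 2.19, adjusted p = 0.0183 in the set free of male signal). Its relative Jon65Aii had 752, 904 and 376 in wild type and 1772, 1366 and 1534 in mutants (log2 change 1.28 ± 0.26, adjusted p = 0.0131, and 1.94, adjusted p = 0.0200 in the set free of male signal). In both, wild type 3 was the lowest library, and the mutants stood above all wild-type libraries. Jon65Ai was called only without the 3 libraries (1.99, adjusted p = 0.0188, against 1.07 ± 0.35 and adjusted p = 0.0708 with all). The Jonah genes are a family of close relatives, whose counts depend on how shared reads were assigned.

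The amylase gene Amy-d was lower, with 8396, 13305 and 7723 in wild type and 4245, 3133 and 3355 in mutants (log2 change -1.42 ± 0.26, adjusted p = 0.00763, and -1.25, adjusted p = 0.330 in the set free of male signal), a fall that missed the test in the second fit. Its paralog Amy-p, which is nearly the same in sequence, had 5020.4, 7723 and 4605 in wild type and 8355, 7612 and 6895 in mutants and was not called (log2 change 0.43 ± 0.20, adjusted p = 0.166). The maltase genes Mal-A7 (0.95 ± 0.19), Mal-A8 (0.59 ± 0.16) and Mal-B1 (0.99 ± 0.26) were higher with all libraries and were not called in the set free of male signal, where their log2 changes were 0.52, 0.26 and 0.76. Of this list LysX fell most, as given above.

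Genes first transcribed by the embryo were detected most often in young wild type. This list of 51 early zygotic genes was written with earlier results of these data known, and 29 of its 46 genes in the table were measured. With all libraries 17 were called lower (3.78% of all genes), and 9 were under quantile normalisation and 10 with DESeq2. Without the 3 libraries 13 were called lower (0.649% of all genes). Values were lower in 25 of the 29 and higher in 4, both with all libraries and without the 3. Of the 29, 14 passed the filter on low counts only through young wild type, so that they had to differ and these counts support nothing. For genes with that filter the values below are a description, given without a test. Genes of the 46 with no read numbered 4, 2 and 5 in the wild-type libraries, 21, 27 and 25 in the mutants, and 20 to 23 in each old library.

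bnk, which shapes the actin network in cellularisation, had counts of 36.6, 118 and 67.8 in wild type and 0.977, 0 and 0 in mutants (log2 change -5.75, and -6.10 in the set free of male signal). Elba3 and its partner Bsg25A, also known as Elba1, encode parts of an insulator complex of the early embryo. Elba3 had 23.2, 144 and 45.2 in wild type and no read in mutants, at least 74.05-fold lower, and Bsg25A had 42.7, 137 and 47.2 in wild type and 0, 0 and 1.02 in mutants. The log2 changes of Elba3 and Bsg25A were -5.77 and -5.71, and -5.53 and -5.08 in the set free of male signal. These 3 genes passed the filter only through young wild type. Wild type 3, where the male tract sum was at the level of the old libraries, held each of these transcripts. Elba2, on the same list, was not lower, with 1367, 1262 and 1937 in wild type and 1740, 2004 and 2005 in mutants.

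The neighbouring Bearded-family genes Tom, Brd and Ocho, inhibitors of Notch signalling on 3L, were all lower in mutants. Tom, which passed the filter only through young wild type, had 153, 117 and 48.1 in wild type and 5.86, 0 and 0 in mutants (log2 change -5.66, and -5.62 in the set free of male signal). Brd had 29.3, 16.7 and 10.8 in wild type and 0, 0 and 0 in mutants, and Ocho had 37.8, 19.9 and 10.8 in wild type and 0.977, 0.879 and 0 in mutants. Brd and Ocho passed the filter in the same way as Tom, which fixed their direction, so no test is given. Their log2 changes were -4.21 and -3.78, and -3.56 and -3.11 in the set free of male signal. In these 3 genes mutants 2 and 3 had at most 1 read. The mesoderm factor sna, which passed the filter only through young wild type too, had 24.4, 35.1 and 10.8 in wild type and 1.95, 0 and 0 in mutants (log2 change -3.95, and -3.56 in the set free of male signal).

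CG10035, CG14317, Ilp4 and Sr-CII also passed the filter only through young wild type, which fixed their direction. CG10035 had the largest negative change among the tested genes, with 323, 266 and 136 in wild type and 0.977, 0 and 1.02 in mutants (log2 change -7.17, and -6.59 in the set free of male signal). Ilp4, an insulin-like peptide gene expressed in the embryo, had 53.7, 33.5 and 13.8 in wild type and 2.93, 0 and 1.02 in mutants (log2 change -3.93, and -3.38 in the set free of male signal). CG14317 had 64.7, 208 and 53.1 in wild type and no read in mutants, at least 114-fold lower. The scavenger receptor gene Sr-CII had 48.8, 54.2 and 25.5 and again none in mutants, at least 44.9-fold lower.

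The rest of the 12 genes with the largest negative changes among those called in both fits had passed the filter in the same way. CG4440 had 143, 113 and 48.1 in wild type and 1.95, 0 and 0 in mutants, and CG8960, SNCF, CG14014 and CG7271 had no read in mutants, at least 54.7-, 52.6-, 54.3- and 42.1-fold lower. Wild type 2 was highest in both the male tract sum and several of these genes, Elba3, bnk and Bsg25A among them, while wild type 3, at 59.9 in that sum, had 45.2, 67.8 and 47.2 counts of these 3.

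**Figure D3:**
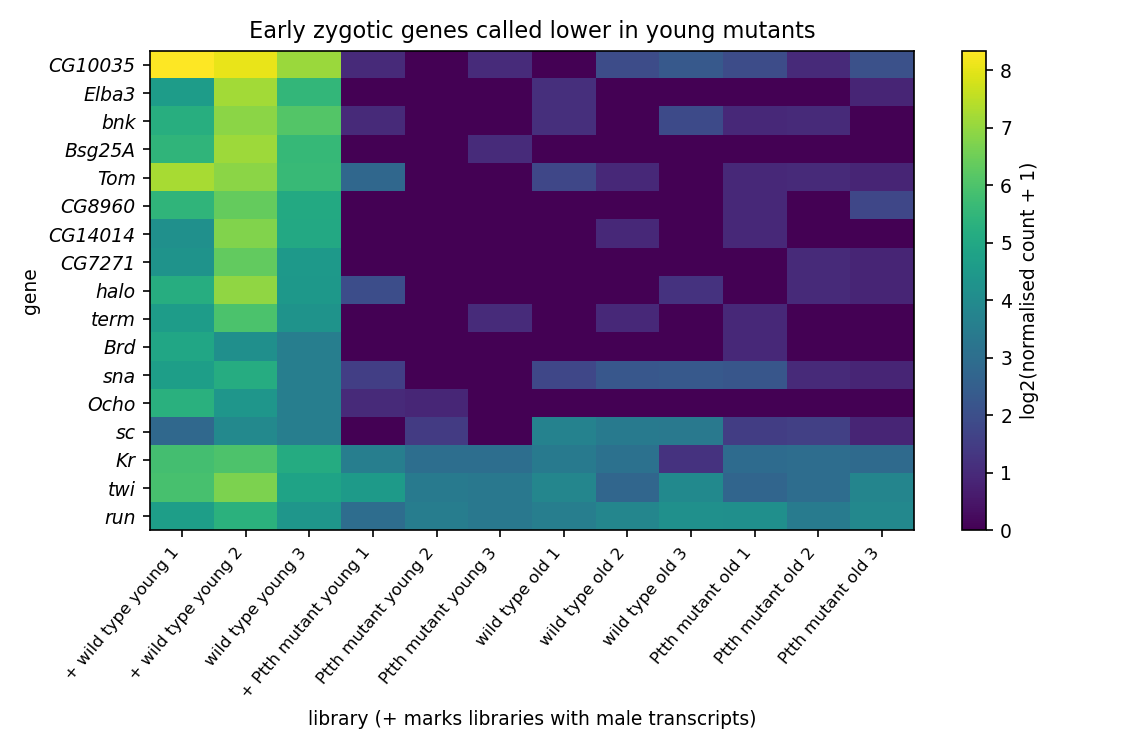
Heat map of log2(normalised count + 1) of the 17 early zygotic genes called lower in young mutants (rows), most of which passed the filter only through young wild type, in all 12 libraries (columns), with + before the 3 libraries that hold male transcripts. The 3 young wild-type columns are bright for most rows, wild type 3 included, whereas Elba3, CG8960, CG14014, CG7271 and Brd are at 0 in all 3 young mutants.

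Immune genes divided with mutant 1. Of 14 antimicrobial peptide genes only AttD and Def were called, both lower (3.78% of all genes). AttD had 232, 202 and 142 in wild type and 43.97, 11.4 and 15.2 in mutants (log2 change -3.18 ± 0.52, adjusted p = 0.00339), and Def had 359, 663 and 318 in wild type and 173, 105 and 135 in mutants (log2 change -1.64 ± 0.36, adjusted p = 0.0192). Both kept their direction and missed the test in the set free of male signal (-3.34, adjusted p = 0.141 for AttD and -1.41, adjusted p = 0.436 for Def). The list's median was -1.10 with all libraries, -1.79 with 14 of 14 genes lower without the 3, and 0.23 within the 3, beside -0.02, 0.01 and -0.03 over all tested genes.

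The diptericin gene DptA shows the division, with 581, 459 and 484 in wild type and 450.5, 19.3 and 37.6 in mutants. Mutant 1 was close to the lowest wild-type library, and both other mutants were below every wild-type library. The change was not called in either fit (log2 change -2.84 ± 1.00, adjusted p = 0.0868, and -4.11, adjusted p = 0.288 in the set free of male signal). Dro, which encodes drosocin, had 199, 98.9 and 172 in wild type and 640.0, 28.1 and 36.6 in mutants and was not called (log2 change -0.77 ± 0.99, adjusted p = 0.574). For Dro, mutants 2 and 3 were below every wild-type library, and mutant 1 was above all of them. The 11 measured Bomanin genes, effectors of the Toll pathway, had a median of -0.01 and none called with all libraries. Their median was -0.34 with 9 of 11 lower without the 3 libraries, and 0.62 within the 3. They summed to 25069 in mutant 1 and to between 8143 and 16488 in the other young libraries. IM23 had 76.9, 145 and 71.7 in wild type and 1608, 46.6 and 68.1 in mutants, so mutant 1 was far above the other 5. Its log2 change was 0.89 ± 1.03, and -0.34 in the set free of male signal. Of 33 Imd and Toll components 2 were called lower, beside 3.78% of all genes, and 1 under quantile normalisation. PGRP-LB, an amidase that degrades peptidoglycan (log2 change -0.85 ± 0.19, adjusted p = 0.0188), and PGRP-SC2 (log2 change -0.65 ± 0.18, adjusted p = 0.0441) were lower, neither of them called in the set free of male signal (-0.77, adjusted p = 0.404, and -0.41, adjusted p = 0.644).

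The JAK-STAT pathway carries signals of the unpaired cytokines. Of 15 measured members 3 were lower (3.78% of all genes), with a median of -0.34 (-0.10 without the 3 libraries), and under quantile normalisation 1 was lower and the median was -0.09. The cytokine gene upd3 had 52.5, 67.00 and 46.2 in wild type and 9.77, 13.2 and 6.10 in mutants, with no overlap (log2 change -2.43 ± 0.27, adjusted p = 2.00e-04), and upd1 had 56.1, 58.2 and 30.5 in wild type and 23.5, 21.99 and 21.3 in mutants (log2 change -1.03 ± 0.27, adjusted p = 0.0371). The third was Socs36E, an inhibitor that the pathway induces, with 1051, 989.8 and 799.7 in wild type and 602, 526 and 479 in mutants (log2 change -0.82 ± 0.16, adjusted p = 0.00883). None was called in the set free of male signal, where the log2 changes were -2.23, adjusted p = 0.0657 for upd3, -0.47, adjusted p = 0.520 for upd1 and -0.67, adjusted p = 0.375 for Socs36E.

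Act88F, the actin of indirect flight muscle, had 11359, 10345 and 4959 in wild type and 1639.6, 1317 and 1223 in mutants (log2 change -2.59 ± 0.30, adjusted p = 3.31e-04, and -1.97, adjusted p = 0.0892 in the set free of male signal). Mutants were below wild type in every library, and wild type 3 was the lowest of its group. Only 1 other of 26 muscle genes was called, Zasp52 of the Z-disc (log2 change -0.62 ± 0.13, adjusted p = 0.0157, and -0.38, adjusted p = 0.513 in the set free of male signal). The 2 called of 26 stand beside 3.78% of all genes called lower. The median of the list was -0.26 with all libraries and -0.05 without the 3. Kr-h1, the transcription factor induced by juvenile hormone, had 256, 277 and 196 in wild type and 153, 138 and 101 in mutants (log2 change -0.90 ± 0.19, adjusted p = 0.0162, and -0.73, adjusted p = 0.421 in the set free of male signal). It was the 1 juvenile hormone gene of 10 called, beside 3.78% of all genes called lower, and with all libraries only.

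Germline and cell cycle genes had positive medians. Of 20 germline and oocyte genes 17 had higher values, with a median of 0.19, and without the 3 libraries 15 did, with a median of 0.07 and none called. With all libraries 1 was called (1.03% of all genes), bam, the switch of germline differentiation, which had 366, 301 and 445 in wild type and 669, 706 and 687 in mutants (log2 change 0.91 ± 0.12, adjusted p = 8.94e-04, and 0.65, adjusted p = 0.0643 in the set free of male signal). All 29 measured cell cycle genes had higher values with none called, and their median was 0.38 with all libraries and 0.12 without the 3. Wild type 1 and 2 had lower summed cell cycle counts (139086 and 117942) than wild type 3 (176376), and the highest mutant had 194711. Mutant 1 lay below wild type 3.

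AkhR, Lsd-1 and Lsp1beta, genes of energy stores, were called only without the 3 libraries. The receptor of adipokinetic hormone, AkhR, had 776, 845 and 583 in wild type and 991, 1009 and 1074 in mutants (0.84, adjusted p = 0.0491 in the set free of male signal). It was higher in each mutant than in any wild-type library, but under the fold with all libraries (log2 change 0.50 ± 0.13, adjusted p = 0.0332). Lsd-1, a perilipin of the lipid droplet, had 3361, 3249 and 1814 in wild type and 4079, 3887 and 3683 in mutants (1.06, adjusted p = 0.0255 in the set free of male signal, and log2 change 0.52 ± 0.19, adjusted p = 0.0904 with all). Lsp1beta, a larval serum protein, had 138, 1003 and 104 in wild type and 1257, 732 and 805 in mutants (2.87, adjusted p = 0.00287 in the set free of male signal, and log2 change 1.89 ± 0.62, adjusted p = 0.0734 with all), where wild type 2 lay within the mutant range. In total 22 genes were called only without the 3 libraries, 10 higher and 12 lower. Of these, 1 of the 10 and 9 of the 12 had at most 3 reads in each of the other 3 libraries, and another 2 of the 12 passed the filter only through young wild type. That leaves 9 higher and 1 lower. The lower one was the male dosage compensation RNA roX1, with 812, 1968 and 148 in wild type and 502, 36.1 and 31.5 in mutants (-2.11, adjusted p = 0.0133 in the set free of male signal).

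Other lists held single called genes or none. Adh, the alcohol dehydrogenase, had 14.6, 29.5 and 10.8 in wild type and 113, 65.96 and 79.3 in mutants (log2 change 2.26 ± 0.41, adjusted p = 0.00713, and 2.63, adjusted p = 0.113 in the set free of male signal). phr6-4, a photolyase for light-driven DNA repair, had 164, 143 and 146 in wild type and 771, 633 and 866 in mutants (log2 change 2.31 ± 0.20, adjusted p = 4.56e-05, and 2.33, adjusted p = 0.0507 in the set free of male signal). In both the genotypes did not overlap, and both missed the threshold in the second fit. vkg, a collagen IV chain of the basement membrane, was the 1 of 13 blood cell and prophenoloxidase genes called lower (log2 change -0.60 ± 0.15, adjusted p = 0.0316, and -0.49, adjusted p = 0.580 in the set free of male signal), and the opsin Rh5 the 1 of 23 photoreceptor and neuron genes, beside 3.78% of all genes and with none under quantile normalisation (log2 change -0.62 ± 0.17, adjusted p = 0.0485, and -0.35, adjusted p = 0.717 in the set free of male signal).

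No gene was called in either fit among 14 oenocyte hydrocarbon genes, 12 of fatty acid and triglyceride synthesis, 14 of heat shock and metal stress, 22 of yolk, eggshell and ovary, 9 clock genes, 31 odorant-binding proteins, 10 polarity genes and 13 genes of the mitochondrial genome. With all libraries, 1 polarity gene was called lower under each of TMM scaling, quantile normalisation, edgeR and DESeq2. The riser dgo, named above, is not on that list. DESeq2 also called 2 yolk and eggshell, 2 odorant-binding and 1 heat shock gene lower. With edgeR 1 odorant-binding gene was lower, and under quantile normalisation 1 mitochondrial gene was higher. Of the mitochondrial genes 13 of 13 had higher values with all libraries, with a median of 0.18, and 11 of 13 under TMM scaling. Their median was 0.40 without the 3 libraries, with 13 of 13 higher, and -0.05 within the 3. The 43 measured male tract genes were all lower in the mutants' means of log2 values (median -2.63), with none called, and their median was 0 without the 3 libraries.

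The share of called genes differed between chromosome arms. The share called was 6.69% on 2L, 7.06% on 2R, 3.85% on 3L, 4.11% on 3R and 2.30% on X, and of the 93 genes called in both fits 1 lay on X. Within 50 kb of Ptth 4 of 15 other tested genes were called (26.7%), and within 500 kb 10 of 107 (9.35%), 3 of them also without the 3 libraries. rempA, which encodes a subunit of intraflagellar transport, lies 22.0 kb away at 553742 to 560310 and had 240.4, 253 and 195 in wild type and 84.03, 76.5 and 65.04 in mutants (log2 change -1.59 ± 0.15, adjusted p = 6.95e-05, and -1.45, adjusted p = 0.0290 in the set free of male signal). Tspo, of the outer mitochondrial membrane, overlaps it on the other strand and had 401, 395 and 378 in wild type and 212, 159 and 206 in mutants (log2 change -1.03 ± 0.12, adjusted p = 3.71e-04, and -1.06, adjusted p = 0.0821 in the set free of male signal). In both genes the mutants were below wild type in every library.

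Ets21C, a transcription factor of the ETS family 30.8 kb away, had 127, 91.7 and 83.5 in wild type and 53.7, 38.7 and 33.5 in mutants (log2 change -1.25 ± 0.22, adjusted p = 0.00544, and -1.19, adjusted p = 0.130 in the set free of male signal). Farther off, CG3709 (Pus10), a pseudouridine synthase gene, rose, with 179, 148 and 179 in wild type and 456, 457 and 496 in mutants (log2 change 1.48 ± 0.09, adjusted p = 4.48e-06, and 1.41, adjusted p = 0.00357 in the set free of male signal). CG13947, 203 kb away, had 1979, 1769.8 and 1925 in wild type and 285, 207 and 184 in mutants (log2 change -3.09 ± 0.28, adjusted p = 6.95e-05, and -3.30, adjusted p = 0.0474 in the set free of male signal). The noncoding lncRNA:CR46148, 12.3 kb away, was higher at low counts, with 10.98, 6.38 and 2.95 in wild type and 23.5, 35.2 and 34.6 in mutants (log2 change 2.16 ± 0.54, adjusted p = 0.0324, and 3.18, adjusted p = 0.119 in the set free of male signal). Of the 10 genes 8 were called at the old age as well. Lsp1beta, given above, also lies in this window, 323 kb away, but was not called with all libraries and is not among the 10. How far the alleles near Ptth differ between the stocks was not tested.

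**Figure D4:**
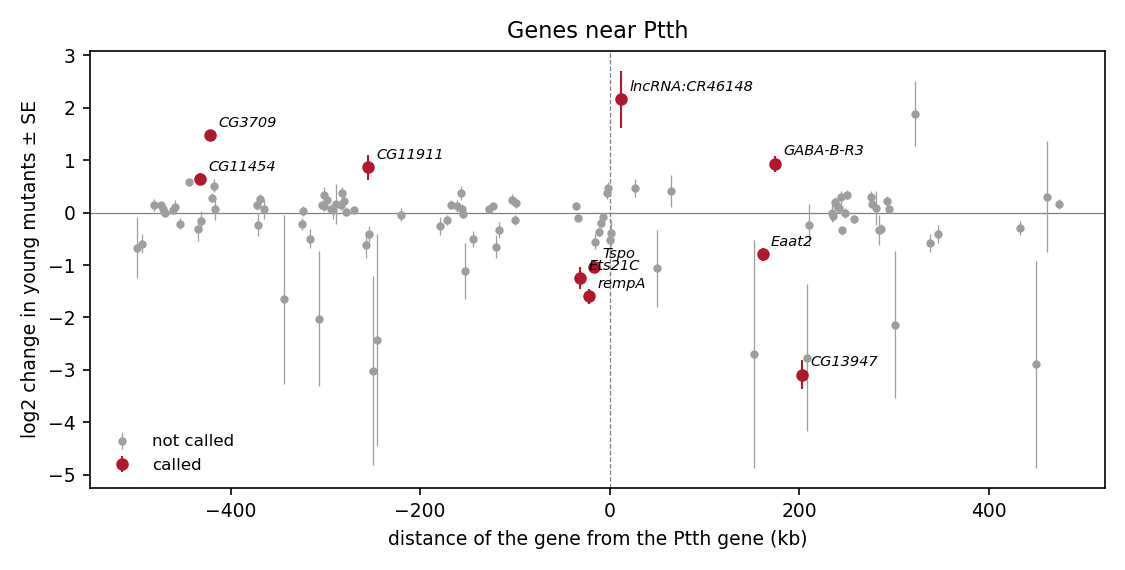
Log2 change in young mutants with its SE (y axis) of the tested genes within 500 kb of Ptth, by distance of their start from that of Ptth (x axis), with called genes in red and named. Of the 4 called genes within 50 kb, Ets21C, rempA and Tspo lie below 0 and lncRNA:CR46148 above.

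Of the 93 genes called in both fits, 67 were called in the same direction between old mutants and old wild type, 27 higher and 40 lower, which is 72.0%, and none in the opposite one. Of all genes 4.17% were called at the old age, 1.46% higher and 2.71% lower. Of the 26 others, 17 had passed the filter only through young wild type. The test of the difference between the young and the old change passed for 18 genes (0.158%), of which 7 were called at the young age. Without the 3 libraries it passed for 1 of the 18, CG32557, which was not called at the young age and is named after its values were seen. The early zygotic gene CG10035, at 0, 2.86 and 3.97 in old wild type, was among them, but it passed the filter only through young wild type, so a larger young change was fixed. Act88F differed (-3.32 ± 0.43, adjusted p = 0.0147, and 0.181 without the 3). For that gene, old wild type held 1067, 1350.2 and 985 and old mutants 1564, 2783 and 1462.

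**Figure D5:**
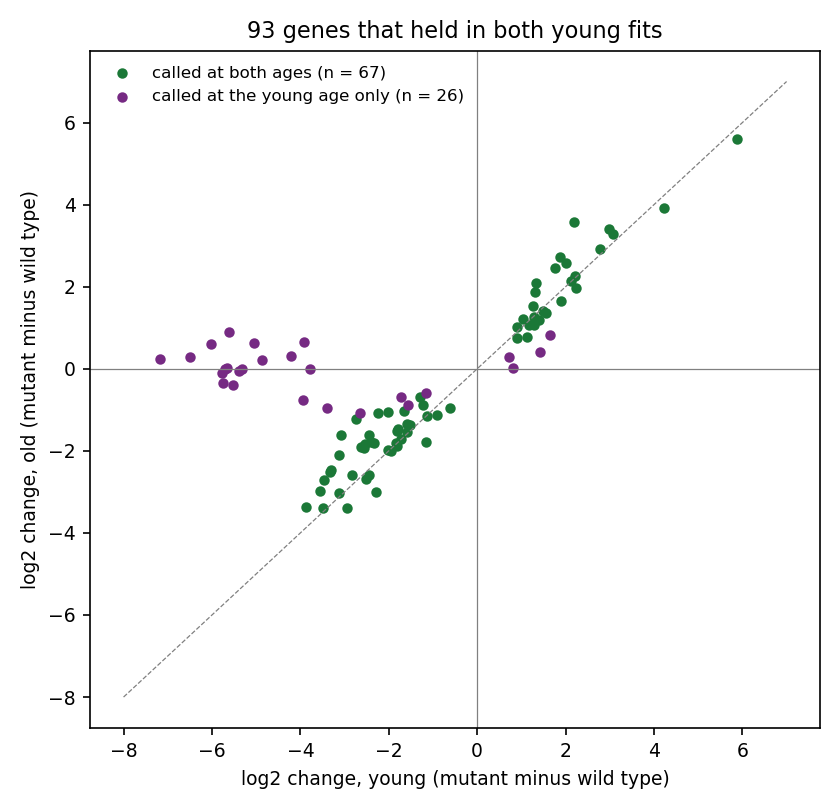
Log2 change between mutant and wild type at the young age (x axis) and the old age (y axis) for the 93 genes called in both young fits, 1 point per gene. The 67 genes called at both ages (green) have the same sign at both, and 26 were called at the young age only (purple), among them the early embryonic genes at about 0 on the y axis.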

How the data were processed

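Poly(A) RNA of whole female flies was sequenced, with 3 libraries per group. The submitters' processing notes name STAR 2.7.3a for alignment to BDGP6, HTSeq 0.11.2 for counting and DESeq2 1.20.0 for scaling. What the authors deposited is therefore a scaled signal per gene. Within 0.01, every value (100%) was a whole multiple of its library's step, so that reads could be recovered. The labels describe 2 library preparations without saying which library had which, so such a batch was not tested. Genotype names and ages are those of the labels and the design text, which differ from the paper's.

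Of 17714 genes, 11403 with a value of at least 10 in at least 3 of 12 libraries were tested on log2(value + 1), a scale that understates changes of low genes, with limma 3.58.1 in R 4.3.3 (all 12 libraries in 1 model of 4 groups, trend, two-sided, Benjamini-Hochberg adjustment). All adjusted p-values in the text come from it, log2 changes are mutant minus wild type and ± gives the SE (n = 3 per group). Called genes had an adjusted p under 0.05 and a fold over 1.5, and the interaction an adjusted p under 0.05. Replicates are not stated to be separate cultures, and the p-values hold for the spread among these libraries only. Other fits used the recovered reads in edgeR 4.0.16 and DESeq2 1.42.0, and further alternatives changed the scaling, pseudocount, filter, weights, libraries and a replicate block. The procedure was tested on simulated data. Positions came from an Ensembl annotation of Release 6.

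The members, the 31 gene lists and the tests were chosen with earlier results of these data known. The genes named were Ptth and tor, the 12 largest rises and falls among genes called in both fits with a mean of at least 20, up to 4 called members of each list (or 2 with the largest change and a mean of at least 50 where none was called), up to 6 called genes within 500 kb of Ptth, up to 6 called only without the 3 libraries, and up to 6 called genes whose young and old changes differed. Others are named as chosen after their values were seen, or stand beside a relative or list they belong to. Promoter motifs were not analysed here.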

Additional observations from a re-analysis of the deposited data

Results flagged for a closer look

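The young and the old genotype change differed by the interaction test of the limma model (adjusted p under 0.05) in 18 genes, 7 of which are named here. The young minus old log2 difference was -7.41 for CG10035, -3.32 for Act88F, -5.46 for link, -1.90 for CG7567, -2.71 for CG8299 and -5.11 for hll, and 0.65 for l(2)gl, a cell polarity gene that was not called at the young age and was lower in old mutants. CG10035 and link passed the filter on low counts only through young wild type, so that their larger young change was fixed. For none of the 7 did this test pass without the 3 libraries with male transcripts, where the adjusted p lay between 0.181 and 0.532. CG8299 and hll were called lower in young mutants and higher in old ones, with log2 changes of -1.19 and 1.53 for CG8299 and -2.37 and 2.74 for hll. The cause of these differences was not tested.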

How the results depend on the processing

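The number of genes called at the young age, 549 in the fit reported, was 115 without the 3 libraries with male transcripts, 316 without the other 3 young libraries and 234 with the young libraries alone, where fewer samples enter. It was 2635 with library weights, a fit that did not converge. Leaving out 1 library gave 297 to 2265, the highest without wild type young replicate 3. It stayed between 461 and 721 under edgeR, DESeq2, TMM, quantile scaling, other pseudocounts and filters and a male transcript covariate. The interaction count of 18 was 6 without the 3 libraries and 6 with edgeR, 123 with DESeq2, 3041 with library weights and 4 to 201 with 1 library left out. The replicate block gave 506 and 21 calls. Samples of the same number did not deviate together in each pair (r = 0.82, -0.87 and 0.88 for the young pairs). The old pairs had r = 0.10, -0.02 and -0.06. The young values were positive where both libraries held male transcripts or neither did, so they cannot show whether the numbers pair the libraries. Of 73 named genes called, 34 were called under each of the 20 alternatives that tested them, and none changed sign. Signs turned only in genes not called: under quantile normalisation Ptth (0.46), sad (0.048) and shd (0.42), IM23 without the 3 libraries (-0.34) and with 1 library left out (-0.71 to 1.83), Obp51a without the 3 libraries (0.51) and with the covariate (0.22), and mt:ND4L without the other 3 (-0.12). The cause was not tested.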
